A study of Mus musculus with 8 samples.

Results

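The genes described here are the variable (V), diversity (D), joining (J) and constant (C) segments of the gamma and delta loci of the mouse T cell receptor. They were chosen by name, as every gene of the deposited count tables whose GENCODE M21 symbol starts with Trgv, Trgj, Tcrg, Trdv, Trdd, Trdj or Trdc. The rule found 26 of the 53465 listed genes, 15 in the gamma locus (7 V, 4 J and 4 C) and 11 in the delta locus (6 V, 2 D, 2 J and 1 C). The cells were thymocytes sorted as CD4+ CD8+, the double-positive stage, from C57BL/6J mice and from NOD/ShiLtJ mice (NOD below), an inbred strain prone to autoimmune diabetes. The question for this set was whether the residual gamma and delta transcripts of double-positive cells differ between the strains.

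Each strain had 4 libraries of sorted live double-positive cells, and no genotype, treatment or age beyond the strain was given in the labels. The titles number the libraries by B and by T without explaining either letter, so those alike in strain and in B were added together, which gave 2 samples per strain. Whether the B numbers stand for separate animals is not stated, and the p-values therefore reflect only how far these samples spread, which may be technical. The NOD libraries were deeper, with 23.5 to 30.4 M reads in genes each, against 8.53 to 15.7 M in the C57BL/6J libraries. Levels are counts per M reads in genes (CPM), either of 1 library or as mean ± SD over the 2 summed samples of a strain (n = 2 throughout). Strain differences are given as log2 fold changes, positive where NOD was higher, with the standard error (SE). The threshold for a call was a p under 0.05 in the quasi-likelihood test of edgeR, after Benjamini-Hochberg adjustment over all 17291 genes tested. The sorted stage was checked against its markers, which were abundant: in C57BL/6J and NOD respectively, Cd4 stood at 1228 ± 96.9 and 1312 ± 75.5 CPM, Cd8a at 1536 ± 43.7 and 1684 ± 19.9 CPM, and Cd3e, a chain of the receptor complex, at 714 ± 70.7 and 968 ± 61.4 CPM. Cd8b1, the other CD8 chain, was lower in all 4 NOD libraries, at 1698 ± 116 and 1091 ± 95.5 CPM, and did not pass the test (log2 fold change -0.68 ± 0.18 SE, adjusted p = 0.0911).

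A gamma-delta T cell carries a receptor made of a gamma and a delta chain, whereas most thymocytes go on to build an alpha-beta receptor. Both gamma and delta segments are rearranged in early, double-negative thymocytes by the RAG recombinase, before the cells choose a lineage. The delta locus lies inside the alpha locus, so a V-to-J joining of alpha segments normally cuts the delta D, J and C segments out of the chromosome, and in cells of the alpha-beta lineage the gamma locus is known to be silenced. The gamma locus consists of 4 cassettes, each with its own J and C segment.

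The J and C sequences are shown because the counting of each cassette rests on how far they differ. They are the transcribed strands of the GENCODE M21 transcripts (GRCm38). In the 4 gamma J segments, each of which encodes the end of the antigen-binding domain, capitals mark the bases unlike Trgj1.
Trgj1 (chr13:19210343-19210402): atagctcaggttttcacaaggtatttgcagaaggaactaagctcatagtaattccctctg
Trgj2 (chr13:19311245-19311304, minus strand): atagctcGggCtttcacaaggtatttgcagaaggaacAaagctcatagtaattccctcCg
Trgj3 (chr13:19257117-19257176): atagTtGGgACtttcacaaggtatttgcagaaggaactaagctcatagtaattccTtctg
Trgj4 (chr13:19342152-19342212): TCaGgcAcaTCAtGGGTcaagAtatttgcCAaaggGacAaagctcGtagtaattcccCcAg
Trgj2 and Trgj3 were identical to Trgj1 at 93.3% and 90.0% of their bases, and Trgj4 at 68.9% of aligned positions.

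The first 60 coding bases of each gamma C gene follow, with capitals for bases unlike Tcrg-C1.
Tcrg-C1: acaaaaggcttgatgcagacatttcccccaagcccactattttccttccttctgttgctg
Tcrg-C2: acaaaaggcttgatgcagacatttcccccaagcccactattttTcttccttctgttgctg
Tcrg-C3: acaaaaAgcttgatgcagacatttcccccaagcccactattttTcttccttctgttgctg
Tcrg-C4: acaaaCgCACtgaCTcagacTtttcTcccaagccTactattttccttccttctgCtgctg
Over the first constant exon, Tcrg-C2 matched Tcrg-C1 at 97.3% of positions, Tcrg-C3 at 96.1% and Tcrg-C4 at 82.1%. Of all 37-base stretches of the exons, about the length of 1 read, 45.0% of those of Tcrg-C1, 38.5% of those of Tcrg-C2 and 52.2% of those of Tcrg-C3 also occurred in another gene, against 0% for Tcrg-C4. Reads from those stretches cannot be told apart among Tcrg-C1, Tcrg-C2 and Tcrg-C3. Whether and how such reads were counted was not given in the sources used here. In the annotated reference sequences, the values of Tcrg-C4 carry no such uncertainty at this length. All shares of 37-base stretches given here are those of the reference. The sequences of the NOD strain were not examined, so whether the shares hold for NOD reads was not tested.

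The delta D and J segments follow, with capitals for the motif TTTGGNNNNGGN, a run of bases that encodes the phenylalanine and 2 glycines common to receptor J segments.
Trdd1 (chr14:54113468-54113478): atggcatatca
Trdd2 (chr14:54122226-54122241): atcggagggatacgag
Trdj1 (chr14:54123138-54123188): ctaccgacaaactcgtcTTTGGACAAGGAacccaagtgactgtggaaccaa
Trdj2 (chr14:54136779-54136837): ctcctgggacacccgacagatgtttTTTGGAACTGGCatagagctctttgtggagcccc
This motif occurred in 44 of the 70 annotated T cell receptor J segments (62.9%), namely in both delta J segments, 35 of 51 alpha and 7 of 13 beta J segments, and in 0 of the 4 gamma J segments. A second motif, TTTGCNNNNGGN, occurred in 6 of the 70 (8.57%): in all 4 gamma J segments, 1 alpha and 1 beta J segment. On the opposite strand each motif occurred in 0 of the 70. Both motifs fix the phenylalanine codon as TTT, so segments with its other codon were not counted.

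In sum over its 15 genes, the gamma locus (chr13:19178024-19352756) gave more reads in NOD. The summed gamma level was 4.22 and 3.28 CPM in the libraries of C57BL/6J sample 1, 6.11 and 7.15 in those of sample 2, 8.24 and 10.2 in those of NOD sample 1 and 15.8 and 18.5 in those of NOD sample 2. All 4 NOD libraries lay above all 4 C57BL/6J libraries, and the NOD mean of 13.1 ± 5.53 CPM was 2.55 times the C57BL/6J mean of 5.15 ± 1.88 CPM. The summed delta locus (chr14:53881612-54149294) was more abundant and did not separate the strains. It stood at 67.6, 69.4, 80.2 and 98.7 CPM in the C57BL/6J libraries and at 66.2, 50.4, 131 and 136 CPM in the NOD libraries, with means of 77.5 ± 13.0 and 95.6 ± 52.9 and a ratio of 1.23. No test was made on these sums. In bulk samples such as these, fewer cells that hold a transcript and less of it per cell cannot be told apart.

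Of the 26 segments, 13 had enough reads to be tested, 6 of the gamma and 7 of the delta locus. The edgeR test called 1 of them, Tcrg-C4, higher in NOD and 0 lower, where 3.68% of all tested genes were called, 1.91% higher and 1.78% lower. At an unadjusted p under 0.05, 5 of the 13 were higher in NOD (Tcrg-C2, Tcrg-C4, Trgv2, Tcrg-V1 and Trdj1) and 0 lower, against 6.81% and 6.3% of all tested genes. All 4 NOD libraries exceeded all 4 C57BL/6J libraries for 4 of the 13, all of them gamma segments, against 9.43% of tested genes. These 4 are the V and C segments of the Tcrg-C2 and Tcrg-C4 cassettes, so they are not independent of each other. All NOD libraries lay below all C57BL/6J libraries for 0 of the 13, against 7.17%. The median log2 fold change was 0.31 over the 13 and 0.02 over all tested genes, and 11 of the 13 lay above 0, as did 52.3% of all. These 13 passed a filter on low counts that can admit a segment through the strain in which it is higher. Tcrg-C4 (0.210 and 0.702 CPM in the C57BL/6J samples), Tcrg-V1 (0 and 0.248) and Trdj2 (0.210 and 0.537) passed it only with the NOD samples. The counts of segments higher in NOD include such segments, so they only describe the tested set. The count of called segments depended on the settings. It was 1 with the DESeq2 Wald test (5.42% of all genes called), 5 without the filter on low counts (3.38%), 4 with the 8 libraries as separate samples (10.1%), 4 without NOD sample 1 (5.06%) and 0 without C57BL/6J sample 1 (1.33%).

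**Figure D1:**
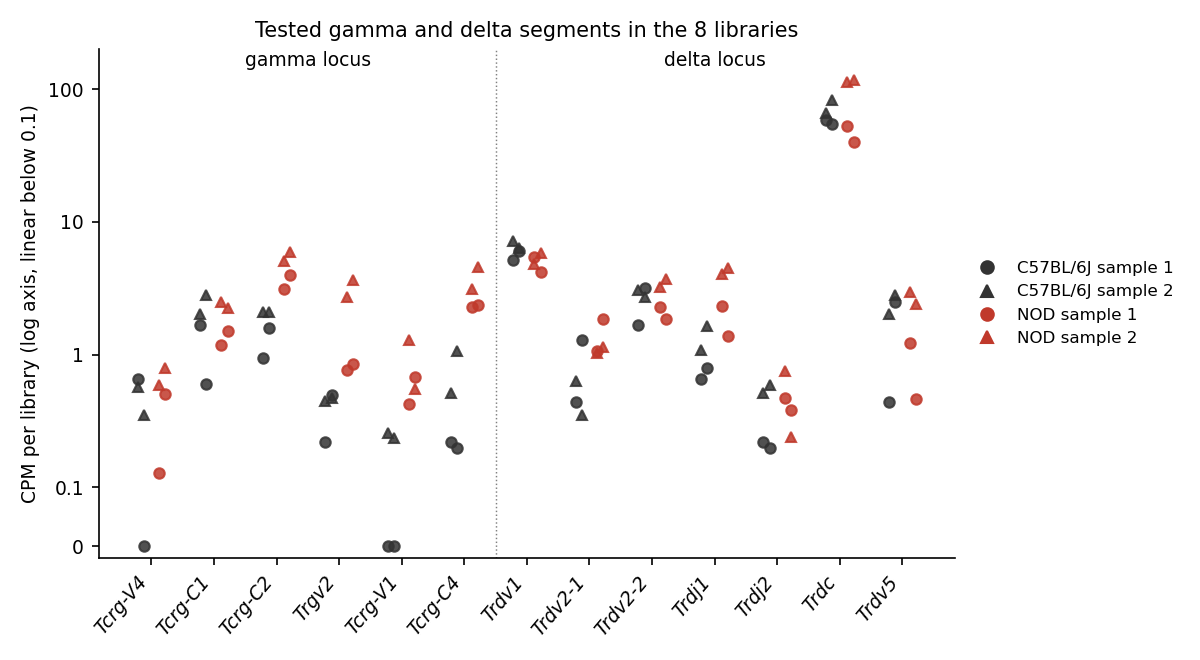
Level of the 13 tested segments in each of the 8 libraries, in CPM on an axis that is logarithmic above 0.1 and linear below; dark symbols are C57BL/6J and red symbols NOD, circles are the 2 libraries of sample 1 and triangles those of sample 2. For Tcrg-C2, Trgv2, Tcrg-V1 and Tcrg-C4 the red symbols lie above all dark ones, and Trdc lies between 40.2 and 117 CPM, above the other segments.

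Among the gamma constant regions, Tcrg-C4 (chr13:19344558-19352756) showed the strain difference that passed the test. It encodes the constant part of the gamma chain used with Tcrg-V1, and GENCODE gives it 985 exon bases. It had 3, 2, 8 and 9 reads in the 4 C57BL/6J libraries and 54, 56, 95 and 115 in the 4 NOD libraries, which is 0.218, 0.199, 0.509 and 1.06 CPM against 2.29, 2.36, 3.13 and 4.55 CPM. The lowest NOD library thus stood above the highest C57BL/6J library. The mean rose from 0.456 ± 0.348 to 3.05 ± 1.02 CPM, a log2 fold change of 2.70 ± 0.59 SE (adjusted p = 0.0398 in edgeR). Without C57BL/6J sample 1 the log2 fold change was 2.12 and the adjusted p 0.264, and without C57BL/6J sample 2 it was 3.75 with an adjusted p of 0.0426. With the B numbers crossed between the strains as a block, a setting chosen after seeing the data, the log2 fold change was 2.71 and the adjusted p 0.0543. Over the 13 alternative settings the adjusted p ranged from 5.28e-05 to 0.264.

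Tcrg-C2 (chr13:19304649-19307551), the constant region of the only cassette that lies on the minus strand, stood at 0.946, 1.59, 2.10 and 2.11 CPM in the C57BL/6J libraries and at 3.10, 3.97, 5.10 and 5.93 CPM in the NOD libraries. Its strains also did not overlap. The means were 1.66 ± 0.627 and 4.51 ± 1.38 CPM, and the log2 fold change of 1.40 ± 0.44 SE did not pass the test (adjusted p = 0.152). Tcrg-C1 (chr13:19214103-19217024), the constant region shared by the V segments of the first cassette, showed 1.67, 0.596, 2.04 and 2.81 CPM in C57BL/6J and 1.19, 1.52, 2.47 and 2.26 CPM in NOD. Here the NOD range lay within the C57BL/6J range, with means of 1.76 ± 0.773 and 1.86 ± 0.719 CPM and a log2 fold change of 0.05 ± 0.49 SE (adjusted p = 0.983). Tcrg-C3, the constant region of the cassette with Tcrg-V3 and Trgj3, had 0 reads in every library.

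The V segments of the gamma locus, which encode most of the antigen-binding domain, followed the same cassettes. Trgv2 (chr13:19336573-19337167), the V segment of the Tcrg-C2 cassette, stood at 0.218, 0.496, 0.446 and 0.469 CPM in C57BL/6J and at 0.765, 0.844, 2.73 and 3.68 CPM in NOD. The strains did not overlap, but NOD sample 2 was 3.93 times NOD sample 1. Its log2 fold change was 2.28 ± 0.72 SE (adjusted p = 0.163). Without NOD sample 1 it was 2.94 (adjusted p = 0.000561), and without NOD sample 2 it was 0.98 (adjusted p = 0.611), in each case with a single NOD sample left. Tcrg-V1 (chr13:19339989-19340454), the V segment of the Tcrg-C4 cassette, was at 0, 0, 0.255 and 0.235 CPM in C57BL/6J and at 0.425, 0.675, 1.28 and 0.554 CPM in NOD. These are 6 and 79 reads in all, again without overlap of the strains (log2 fold change 2.54 ± 0.94 SE, adjusted p = 0.259). Without C57BL/6J sample 1 the log2 fold change was 1.59 (adjusted p = 0.758), and without C57BL/6J sample 2, which held all 6 reads, that strain stood at 0 and no fold is given. Tcrg-V1 shares 36.4% and Trgv2 14.7% of their 37-base stretches with each other or with Tcrg-V3, so a part of their reads is uncertain between them.

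Tcrg-V4, a V segment of the Tcrg-C1 cassette, gave 21 reads in C57BL/6J and 53 in the deeper NOD libraries, with overlapping strains and a log2 fold change of 0.16 ± 0.63 SE (adjusted p = 0.955). Among the gamma J segments, Trgj2 had the most reads, 1 in the C57BL/6J libraries and 5, 3, 8 and 14 in the NOD libraries. Scaled to reads in genes, that is a ratio of 14.0 with an exact 95% interval of 2.33 to 571.5. This interval, like those below, covers counting error only. Trgj2 was too low to be tested, as were the other 3 gamma J segments.

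Summed by cassette, the level of the Tcrg-C2 and Tcrg-C4 cassettes was higher in NOD and that of the Tcrg-C1 cassette was not. These sums, and the difference between cassettes, were not tested, and part of the reads of Tcrg-C1 and Tcrg-C2 is uncertain between them. The Tcrg-C1 cassette (Tcrg-V7, Tcrg-V4, Tcrg-V6, Tcrg-V5, Trgj1 and Tcrg-C1) stood at 2.47 ± 0.647 CPM in C57BL/6J against 2.45 ± 0.981 CPM in NOD (ratio 0.991). The Tcrg-C2 cassette (Trgv2, Trgj2 and Tcrg-C2) stood at 2.08 ± 0.681 and 6.77 ± 3.20 CPM, a ratio of 3.26, and the Tcrg-C4 cassette (Tcrg-V1, Trgj4 and Tcrg-C4) at 0.580 ± 0.523 and 3.86 ± 1.30 CPM, a ratio of 6.66. In both of the latter, all NOD libraries lay above all C57BL/6J libraries. The Tcrg-C3 cassette had 5 reads in all 8 libraries together.

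**Figure D2:**
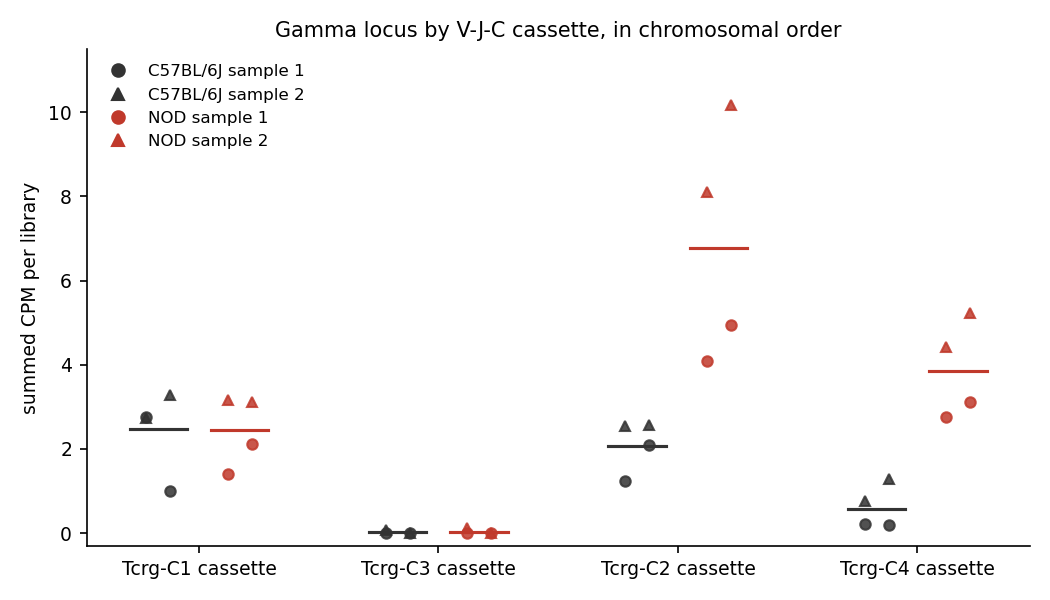
Summed level of the 4 gamma cassettes in chromosomal order, in CPM per library; circles and triangles are the libraries of samples 1 and 2, dark for C57BL/6J and red for NOD, and each line is the mean of the 2 summed samples of a strain. The lines of the Tcrg-C1 cassette coincide at 2.47 and 2.45 CPM, while those of the Tcrg-C2 and Tcrg-C4 cassettes stand at 2.08 against 6.77 and at 0.580 against 3.86.

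A ratio taken within a library does not depend on that library's depth, and it was formed after the cassette values were seen. Reads of the Tcrg-C2 and Tcrg-C4 cassettes together, divided by those of the Tcrg-C1 cassette, came to 0.896 and 1.20 in the C57BL/6J samples and to 4.24 and 4.39 in the NOD samples. By library the ratio was 0.526, 2.30, 1.21 and 1.18 in C57BL/6J and 4.88, 3.82, 3.96 and 4.92 in NOD. The ratio was close between the NOD samples although the summed gamma level of NOD sample 2 was 1.85 times that of NOD sample 1. Because it was formed after the values were seen, no p-value is given for it.

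In the delta locus, the constant region Trdc (chr14:54142851-54148868), the single constant gene of the delta chain, held most of the reads, 11707 of 13883. Its level was 58.8, 54.8, 65.7 and 83.2 CPM in the C57BL/6J libraries and 52.9, 40.2, 113 and 117 CPM in the NOD libraries. Both libraries of NOD sample 1 lay below all C57BL/6J libraries, and both libraries of NOD sample 2 lay above them. The means were 64.5 ± 10.4 and 80.9 ± 48.5 CPM, with a log2 fold change of 0.29 ± 0.44 SE (adjusted p = 0.884 in edgeR). The sign depended on the NOD sample: without NOD sample 1 the log2 fold change was 0.79 (adjusted p = 0.00979), and without NOD sample 2 it was -0.51 (adjusted p = 0.219).

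This split between the NOD samples ran through most of the set. NOD sample 2 exceeded NOD sample 1 by more than 1.5 times for 10 of the 13 tested segments, against 12.2% of all tested genes. The exceptions were Trdv1, Trdv2-1 and Trdj2. Sample 2 was also the higher one in C57BL/6J for the summed gamma locus, by 1.70 times, against 1.85 times in NOD. For the summed delta locus it was higher by 1.27 times in C57BL/6J and 2.28 times in NOD. Trdv2-1 went the other way in C57BL/6J as well, with sample 2 at 0.672 times sample 1. Trac, the constant gene of the alpha chain in whose locus the delta genes lie, ran the other way, at 363 and 327 CPM in the libraries of NOD sample 1 and 247 and 295 CPM in those of NOD sample 2. Trdc reads came to 13.5% of Trac reads in NOD sample 1 and 42.9% in NOD sample 2, with 19.8% and 25.0% in the C57BL/6J samples between them. Summed over the 189 alpha segments, the level was 902 CPM in NOD sample 1 and 626 CPM in NOD sample 2, and 614 and 870 CPM in C57BL/6J samples 1 and 2.

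The delta J segments join to the D segments when a delta chain is made. Trdj1 was at 0.655, 0.794, 1.08 and 1.64 CPM in C57BL/6J and at 2.34, 1.39, 4.05 and 4.51 CPM in NOD. A single NOD library, the second of sample 1, lay within the C57BL/6J range. The means were 0.997 ± 0.400 and 3.06 ± 1.69 CPM, with a log2 fold change of 1.58 ± 0.54 SE (adjusted p = 0.199). It was 2.05 without NOD sample 1 (adjusted p = 0.0189) and 0.87 without NOD sample 2 (adjusted p = 0.545). Trdj2, with 67 reads in all, overlapped between the strains (0.31 ± 0.64 SE, adjusted p = 0.914). Neither delta J segment shares a 37-base stretch with another gene.

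**Figure D3:**
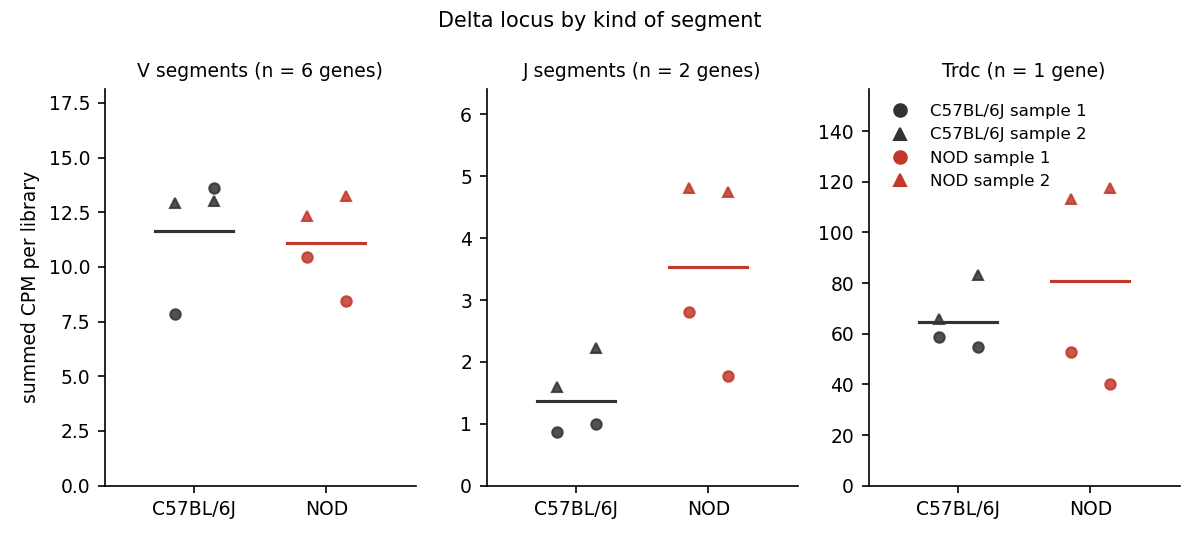
Summed level of the 6 V segments, the 2 J segments and Trdc of the delta locus, in CPM per library on separate axes that start at 0; symbols and lines as in the plot of the gamma cassettes. The V segments lie at like levels in both strains (means 11.6 and 11.1 CPM), the J segments at 1.37 against 3.53 CPM, and the Trdc libraries of the 2 NOD samples lie on both sides of the C57BL/6J libraries.

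None of the 4 tested delta V segments passed the test. Trdv1 (chr14:53881612-53882217), of these V segments the farthest from the D segments, was at 5.17, 6.06, 7.13 and 6.33 CPM in C57BL/6J and at 5.44, 4.22, 4.77 and 5.82 CPM in NOD. The strains overlapped, and the log2 fold change was -0.34 ± 0.32 SE (adjusted p = 0.785). Trdv2-2 was at 1.67, 3.18, 3.06 and 2.70 CPM against 2.29, 1.86, 3.23 and 3.72 CPM (0.04 ± 0.42 SE, adjusted p = 0.984). Its near copy Trdv2-1 was lower, at 0.437, 1.29, 0.637 and 0.352 CPM in C57BL/6J and 1.06, 1.86, 1.02 and 1.15 CPM in NOD. The second C57BL/6J library of sample 1 alone reached the NOD range, and the log2 fold change of 0.87 ± 0.51 SE did not pass the test (adjusted p = 0.570). Trdv2-1 and Trdv2-2 share 64.2% and 57.9% of their 37-base stretches with each other or with the antisense gene Gm43647, so the division of reads between them is uncertain.

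Trdv5 (chr14:54148662-54149294) is the V segment that lies beyond Trdc on the opposite strand and joins by inversion. It was at 0.437, 2.48, 2.04 and 2.81 CPM in C57BL/6J and at 1.23, 0.464, 2.96 and 2.41 CPM in NOD, with wide overlap (-0.05 ± 0.59 SE, adjusted p = 0.984). It overlaps 207 bases of Trdc, and since the strand setting of the counting was not given in the sources used here, its reads and those of Trdc cannot be fully told apart there. The 6 V segments together gave 11.6 ± 1.89 CPM in C57BL/6J against 11.1 ± 2.33 CPM in NOD (ratio 0.954), while the 2 J segments together gave 1.37 ± 0.631 against 3.53 ± 1.76 CPM (ratio 2.58), with overlapping libraries.

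**Figure D4:**
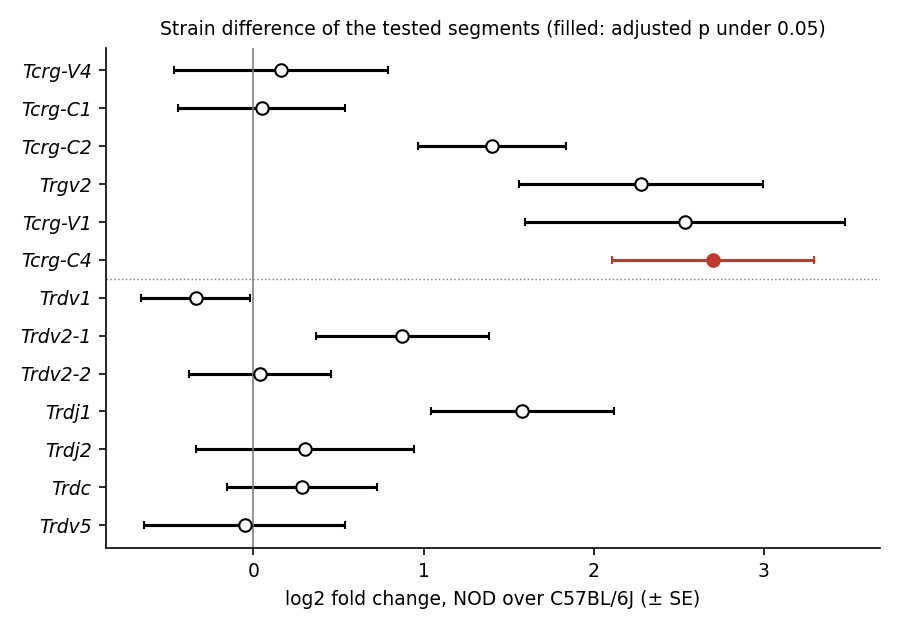
Log2 fold change of NOD over C57BL/6J for the 13 tested segments in chromosomal order, gamma above and delta below the dotted line; points are edgeR estimates, bars are 1 SE, and the filled red point has an adjusted p under 0.05. Tcrg-C4 at 2.70 is the filled point, and Trdv1 at -0.34 and Trdv5 at -0.05 are the points below 0.

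The segments can be ranked against each other only per exon length. Per kilobase of annotated exon, and leaving out the D and J segments, which are about as short as a read, the highest levels in C57BL/6J were those of Trdv1 (18.4 ± 2.74 CPM per kilobase) and Trdc (16.7 ± 2.69), which did not differ beyond their spread. Trdv2-2 (6.60 ± 1.11) and Trdv5 (4.12 ± 1.63) came next, followed by Trdv2-1 (1.92 ± 0.531), Tcrg-C1 (1.91 ± 0.837) and Tcrg-C2 (1.82 ± 0.686), which overlapped within their spread. Tcrg-C4 stood at 0.463 ± 0.353 CPM per kilobase. In NOD the first places were again held by Trdc (20.9 ± 12.6) and Trdv1 (14.9 ± 0.883), while Tcrg-C2 (4.93 ± 1.51) and Tcrg-C4 (3.10 ± 1.04) both stood above Tcrg-C1 (2.02 ± 0.778).

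The 13 segments that were too low to be tested add little to the comparison. Tcrg-V7 and Tcrg-C3 had 0 reads in all libraries. Of the delta segments, Trdv4 had 3 reads in C57BL/6J and 21 in NOD (ratio 3.27, interval 0.976 to 17.1), and Trdd2 had 3 and 15 (ratio 2.33, interval 0.660 to 12.6). All 15 NOD reads of Trdd2 came from sample 2. Trdv3, a V pseudogene singled out after its values were seen, went the other way, with 13 reads in C57BL/6J and 4 in NOD (ratio 0.144, interval 0.0341 to 0.465). Together with Trdv3, Tcrg-V3, Tcrg-V5, Tcrg-V6, Trgj1, Trgj3, Trgj4 and Trdd1 had between 1 and 17 reads each over the 8 libraries.

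The number of segments with at least 1 read was 18 and 19 in the C57BL/6J samples and 19 and 22 in the NOD samples. After every sample was thinned to the reads of the smallest, it was 18 and 19 against 18 and 21. By strain it was 21 and 23 before thinning and 21 and 21 after it.

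The gamma locus ends 4920 bases before the gene Stard3nl, a lipid transfer protein gene, which was at 4.08, 7.35, 9.04 and 9.62 CPM in C57BL/6J and 15.7, 14.3, 12.7 and 12.3 CPM in NOD. Its strains did not overlap either (log2 fold change 0.87 ± 0.31 SE, adjusted p = 0.233). Stard3nl in NOD sample 2 was at 0.834 times NOD sample 1, and in C57BL/6J sample 2 at 1.69 times C57BL/6J sample 1. For the summed gamma locus these values were 1.85 and 1.70. A link between Stard3nl and the segments was not tested. Vps41, a vesicle trafficking gene before the locus, differed little (-0.18 ± 0.20 SE, adjusted p = 0.831), Amph had 2 reads, and Epdr1 had 0 reads in C57BL/6J and 36 in NOD. Beyond the delta locus, Dad1 (-0.13, adjusted p = 0.862) and Abhd4 (0.40, adjusted p = 0.841) did not pass the test, and on its other side the odorant receptor genes Olfr1507 and Olfr1508 had 7 and 0 reads. Annotated antisense genes overlap several segments: Gm31887 over Tcrg-V7, Tcrg-V4, Tcrg-V6 and Tcrg-V5, Gm43647 over Trdv2-1 and Trdv2-2, Gm30275 over Trdv4, Trdd1, Trdd2 and Trdj1, and Gm43434 over Trdj2 and Trdc. They had 16, 165, 25 and 16 reads, and none of the 4 overlaps Tcrg-C2, Trgv2, Tcrg-V1 or Tcrg-C4.

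Genes of the gamma-delta lineage did not pass the test in either direction. Of 30 listed genes 29 were in the tables and 25 were tested. Of these 0 were called, against 3.68% of all tested genes. At an unadjusted p under 0.05 in edgeR, 2 were higher and 0 lower, against 6.81% and 6.3% of all tested genes. The median log2 fold change of the listed genes was 0.16. Their summed level was 5926 to 6621 CPM in C57BL/6J libraries and 5623 to 6774 CPM in NOD libraries, most of it Tcf7, a T lineage transcription factor at 3962 ± 68.3 and 3247 ± 222 CPM (adjusted p = 0.544), and Lef1, its relative, at 619 ± 113 and 788 ± 112 CPM (adjusted p = 0.595). Of the genes closest to that lineage, Il17a had 0 reads, Sox13, a transcription factor of gamma-delta cells, stood at 1.12 ± 0.163 and 1.14 ± 0.390 CPM (adjusted p = 0.996), and Cd163l1, a surface receptor of such cells, had 3 reads in C57BL/6J and 21 in NOD, all of the latter in sample 2. Blk, a kinase of such cells, had 10 and 64 reads with overlapping libraries (count ratio 2.99, interval 1.52 to 6.53 for counting error, adjusted p = 0.567 in edgeR). The 2 genes at an unadjusted p under 0.05 were Itgae, an integrin chain, at 2.15 ± 0.174 and 4.21 ± 0.157 CPM (adjusted p = 0.319), and Il7r, whose values follow with the regulators. Etv5 (0.69 ± 0.35 SE, adjusted p = 0.477) and Il2rb (0.67 ± 0.40 SE, adjusted p = 0.589) were, like Itgae, higher in every NOD library. Of the 25 tested genes, 17 had a log2 fold change above 0. Among those below 0 were Runx3 (-0.40 ± 0.25 SE, adjusted p = 0.615), 5830411N06Rik (-0.19 ± 0.64 SE, adjusted p = 0.948) and Maf (-0.14 ± 0.44 SE, adjusted p = 0.945). Apart from Tcf7 and Lef1, these genes were picked after their values were seen, and their part in the segment levels was not tested.

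Regulators of receptor recombination gave 0 calls among 22 tested genes, against 3.68% of all tested genes. Most of the 22 were not higher in NOD: 8 had a log2 fold change above 0, and the median was -0.16. At an unadjusted p under 0.05 in edgeR, 2 were higher and 2 lower, against 6.81% and 6.3% of all tested genes. Rag1, a recombinase subunit, stood at 8841 ± 354 CPM in C57BL/6J against 5983 ± 926 CPM in NOD, lower in all 4 NOD libraries (log2 fold change -0.61 ± 0.21 SE, adjusted p = 0.217), and Bcl11b, a T lineage factor, at 1710 ± 1.53 and 1952 ± 144 CPM (adjusted p = 0.845). Il7r, the interleukin 7 receptor, whose signal is known to open the gamma locus, was picked after its values were seen. It stood at 2.48, 3.87, 6.37 and 6.10 CPM in C57BL/6J and at 18.3, 16.9, 9.15 and 7.24 CPM in NOD. It was higher in every NOD library (1.44 ± 0.45 SE, adjusted p = 0.168). Sample 1 was the higher one in NOD and sample 2 the higher one in C57BL/6J. The part of Il7r in the gamma levels was not tested. The 9 pre-TCR and CD3 genes gave 0 calls.

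Of the markers of other cells and stages, 2 were called, where 3.68% of all tested genes were called. Among double-negative stage markers, 11 were tested and 1 was called: Cd44, an adhesion receptor, rose from 11.8 ± 1.47 to 24.4 ± 3.10 CPM (log2 fold change 1.02 ± 0.23 SE, adjusted p = 0.0474). The most abundant of them, Notch3 and Ptcra, stood at 40.6 ± 1.53 and 52.2 ± 20.7 CPM (adjusted p = 0.745) and at 27.3 ± 9.02 and 48.9 ± 1.11 CPM (adjusted p = 0.179). Il2ra and Kit, receptors of the early stages named after their values were seen, had log2 fold changes below 0, Il2ra with all 4 NOD libraries below all C57BL/6J libraries (16.6 ± 0.734 and 11.3 ± 2.15 CPM, log2 fold change -0.60 ± 0.26 SE, adjusted p = 0.354) and Kit with overlap (-0.40 ± 0.35 SE, adjusted p = 0.767). Bcl11a and Mef2c, also named after their values were seen, were higher in every NOD library. Bcl11a went from 0.770 ± 0.0389 to 2.24 ± 0.782 CPM (1.49 ± 0.48 SE, adjusted p = 0.175), and Mef2c had 0.69 ± 0.46 SE (adjusted p = 0.645). At an unadjusted p under 0.05 in edgeR, 3 of the 11 were higher in NOD and 1 lower, against 6.81% and 6.3% of all tested genes. The summed level of the double-negative markers was 107 to 119 CPM in C57BL/6J libraries and 132 to 186 CPM in NOD libraries, and in NOD it was 140 in sample 1 and 173 in sample 2. Of the 9 myeloid and dendritic markers 1 was called: Csf1r, a macrophage growth factor receptor, rose from 0.626 ± 0.243 to 3.61 ± 0.348 CPM (2.47 ± 0.48 SE, adjusted p = 0.0233). Their summed level was 43.2 to 54.6 CPM in C57BL/6J and 66.8 to 88.1 CPM in NOD libraries, with Cst3 at 31.8 ± 5.52 and 38.8 ± 5.19 CPM and Cd74 at 10.2 ± 1.70 and 19.0 ± 2.18 CPM as the most abundant. B cell, natural killer, stromal and mature single-positive markers gave 0 calls among 7, 4, 6 and 10 tested genes. Among the most abundant of these, Ighm and Cd79b, Gzma and Prf1, Pecam1 and Epcam, and Slfn2 had adjusted p-values between 0.755 and 0.838. The part of any of these in the gamma and delta levels was not tested.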

How the data were processed

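Total RNA of 8 libraries of sorted double-positive thymocytes, 4 per strain, was sequenced as short paired-end reads from SMARTer Stranded Total RNA libraries, per the labels' protocols. The authors deposited raw counts per gene, whole numbers without normalization. The aligner was STAR 2.5.0a on GRCm38 and the counter HTSeq 0.6.1, per the submitters' processing notes. How far NOD sequences differ from this reference, and whether that alters the NOD counts or the strain differences, was not tested. For the annotation release, the strand setting and the treatment of duplicates, the answer is not given in the sources used here. Symbols and positions came from GENCODE M21, which held 53360 of the listed identifiers and lacked 105. Reads outside genes, 39.98% to 59.1% per library, were not used. Reads in genes, outside genes and ambiguous between genes made up all listed reads. None were listed as aligning to several places, and whether such reads were removed before counting is not given.

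Libraries with the same strain and B number were summed to 4 samples. Genes were kept with filterByExpr, scaled by TMM and tested with the robust, two-sided quasi-likelihood test of edgeR 4.0.16 (R 4.3.3) with strain as the only term. CPM levels use reads in genes without TMM. Intervals of count ratios are exact 95% intervals. On simulated counts for the 17291 tested genes, the fit was checked to recover set changes. DESeq2 1.42.0 and other settings served as alternatives. Values named are those of all segments with at least 100 reads, called segments, the 6 next in reads, the called and the 2 most abundant genes of each marker list, and the nearest neighbours; other genes named are said to be picked after their values were seen. Members and lists were chosen with earlier results of these data known. The values of 1 marker gene are not reported here.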

Additional observations from a re-analysis of the deposited data

Results flagged for a closer look

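Trdv2-1 in the second library of NOD sample 1 stood at 1.86 CPM, apart from the other 3 NOD libraries at 1.02 to 1.15 CPM. It was picked out by its distance from the nearest other library relative to the range of the strain, a criterion that chance meets in about 1 of 20 groups. A total of 30 groups of 4 libraries were examined and 1 was picked out.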

How the results depend on the processing

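Over 167 recomputed log2 fold changes of the 13 tested segments, 145 kept their direction and their side of the threshold, 10 gained and 2 lost the call, and 10 changed sign. The number of called segments was 5 without the filter on low counts, 4 with the 8 libraries as separate samples and 0 to 4 when single samples were left out; over all genes the calls came to 1188, 1535 and 256 to 1389. The 4 calls arose without NOD sample 1 (Tcrg-C4, Trgv2, Trdj1 and Trdc), and the count of 0 without C57BL/6J sample 1; all rest on 1 sample in a strain, assumed to vary like the other strain. With the B number as a replicate block, 1 segment and 513 genes were called, and no segment's call changed. Over all tested genes, same-numbered samples deviated weakly in opposite directions (r = -0.12). With 2 samples per strain the crossed value is the mirror image (0.12). So small an r does not settle whether the numbers pair the samples. Crossing the numbers, an alternative chosen after seeing the data, called 0 segments and 768 genes.

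Signs changed when single samples were left out for Tcrg-V4 (-0.49 to 0.59), Tcrg-C1 (-0.41 to 0.52), Trdv2-2 (-0.38 to 0.35), Trdj2 (-0.18 to 1.06), Trdc (-0.51 to 0.79) and Trdv5 (-1.12 to 0.55), with the negative end without NOD sample 2, or for Trdj2 without C57BL/6J sample 1. Trdv5 was above 0 without NOD sample 1 (0.55) and without C57BL/6J sample 2 (0.36). With the crossed block Trdv2-2 came to -0.0013. The cause was not tested. The log2 ratio of summed gamma reads, 1.35, was 0.84 to 1.78 without single samples, and that of delta reads, 0.30, was -0.41 to 0.78. At 10 or more reads, 12 segments were detected in C57BL/6J and 16 in NOD, or 12 and 13 after thinning to equal depth.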
